A study of Homo sapiens with 4 samples.

Results

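The regions described here are 912 pairs of neighbouring protein-coding genes that are transcribed towards each other, so that their 3′ ends face across a short gap. They were taken from the deposited table of 60048 genes, 19874 of them protein-coding on 23 chromosomes. A pair is a plus-strand gene followed directly, among the protein-coding genes, by a minus-strand gene whose span starts between 0 and 5000 bases after the end of the first. Of 1300 such pairs, 388 were left out because a member starts within 1000 bases of another protein-coding gene that is transcribed away from it. The remaining 912 of 19851 adjacent protein-coding pairs hold 1824 genes; the rule uses position, strand and gene type.

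The assay was EU-seq, in which newly made RNA takes up 5-ethynyl uridine and is captured before sequencing. The cells were HCT116, a colorectal carcinoma line, of the genotype RAD21-mAC, in which the cohesin subunit RAD21 carries a degron tag that lets auxin trigger loss of the protein. The 2 control libraries came from RAD21-mAC cells given DMSO and the 2 auxin libraries from RAD21-mAC cells given 0.5 mM indole-3-acetic acid over 3 h; all 4 were labelled with 0.5 mM EU during 20 min and mixed with labelled RNA of Drosophila S2 cells. The labels do not say whether replicates were separate cultures or whether the line is 1 clone, so p-values measure only the spread between these libraries. No auxin-treated line without the tag was analysed here, so loss of RAD21 and exposure to auxin cannot be told apart. In such bulk libraries a change in the share of cells that make an RNA and a change per cell cannot be told apart either.

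RNA polymerase II normally transcribes past the polyadenylation site of a gene, where the cleavage machinery cuts the transcript and an exonuclease follows the polymerase until it is released. In a convergent pair, a polymerase that is not released in time enters the neighbour from its 3′ end, and the RNA it makes there is antisense to that neighbour. The quantity of interest in these pairs was therefore whether the signal of the weaker member moved with that of the stronger member after auxin, by more than replicate libraries do. The table does not separate the strands: small genes nested in a longer host had a median signal per kb of 1.09 times that of the host both where they lie on the opposite strand (1556 genes) and where they lie on the same strand (659 genes). Antisense read-through into a neighbour would thus be added to that neighbour's value, and the RNA of both strands cannot be told apart.

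Promoters of a convergent pair lie at its outer ends, far from the shared gap. This is shown for a pair whose members changed differently and overlap no other gene, ITPKA-LTK, and for the pair of the most strongly decreased member by p-value, JARID2-DTNBP1. Their starts in the table are 20.005 kb and 416.989 kb apart. The sequences are the 250 bases before the RefSeq start (GRCh38.p14), 5′ to 3′ on the strand of the gene. ITPKA lies on plus (chr15:41493624-41493873), LTK on minus (chr15:41513828-41514077), JARID2 on plus (chr6:15245819-15246068) and DTNBP1 on minus (chr6:15663029-15663278); the RefSeq starts of LTK and DTNBP1 are 52 and 30 bases downstream of the starts in the table. Capitals mark GCGTG or its reverse complement CACGC, the core of the element bound by the aryl hydrocarbon receptor with ARNT.
ITPKA: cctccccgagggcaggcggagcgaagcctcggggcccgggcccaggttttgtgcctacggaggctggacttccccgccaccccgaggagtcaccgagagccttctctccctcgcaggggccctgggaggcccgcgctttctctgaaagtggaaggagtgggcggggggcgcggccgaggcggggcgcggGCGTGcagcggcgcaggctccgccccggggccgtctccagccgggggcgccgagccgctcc
LTK: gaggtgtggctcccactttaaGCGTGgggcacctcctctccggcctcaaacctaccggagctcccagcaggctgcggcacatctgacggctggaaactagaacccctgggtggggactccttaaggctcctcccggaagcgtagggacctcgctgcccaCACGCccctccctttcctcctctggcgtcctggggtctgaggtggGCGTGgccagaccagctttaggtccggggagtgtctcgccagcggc
JARID2: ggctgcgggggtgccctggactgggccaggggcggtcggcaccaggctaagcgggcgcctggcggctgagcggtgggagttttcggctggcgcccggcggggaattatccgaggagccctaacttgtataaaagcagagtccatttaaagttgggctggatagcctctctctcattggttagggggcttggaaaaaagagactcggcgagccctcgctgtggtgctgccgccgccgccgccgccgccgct
DTNBP1: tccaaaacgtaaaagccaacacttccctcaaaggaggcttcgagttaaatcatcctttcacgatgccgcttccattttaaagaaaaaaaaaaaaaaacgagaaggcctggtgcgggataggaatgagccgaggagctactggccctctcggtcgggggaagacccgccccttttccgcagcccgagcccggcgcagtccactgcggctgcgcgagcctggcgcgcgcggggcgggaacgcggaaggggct
The motif was found 1 time in the ITPKA window and 3 times in the LTK window, where 2 matches are on the gene's strand and 1 on the other. In the JARID2 and DTNBP1 windows these letters were not found. Of all 27305 RefSeq promoter windows of this length, 31.9% held the motif on either strand, against 42.5% of the 1436 member promoters that could be matched by symbol. The larger set was not limited to protein-coding genes, as the members are, so the 2 shares are not like for like. Base composition was not matched, and the difference was not tested. A match is a description of the letters and not a bound site.

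The unit of the deposited values is not stated. They are named read counts, but were read here as a scaled signal summed over the whole span of a gene, introns included. The use of limma and not of a model for counts rests on this reading, and the depth in reads is unknown. Library totals ran from 61135244 to 93113007, and the libraries were brought to a common scale by trimmed means of M-values (TMM) with factors from 0.816 to 1.21. Changes are thus relative to the bulk of tested genes, and a shift shared by all genes would not be seen. The Drosophila RNA was not used for this scaling. Whether the deposited scale already takes it into account is not given in the sources used here. RAD21 itself, which is not a member, had 5154 and 7190 in the control libraries and 5893 and 6264 in the auxin libraries (log2 change -0.0029, SE 0.17, limma adjusted p = 0.998); the degron acts on the protein, so this does not check the labels, and RAD21 overlaps UTP23 and RAD21-AS1 in the table. Of 11 colon epithelial markers, all were tested, with a median of 124 per kb and KRT19, KRT18 and KRT8 the highest, while CEACAM5 and CDX1 were near 0. Markers of blood, stroma, endothelium and liver had a median of 0.877 per kb over 10 genes, none at 0 in all libraries and COL1A1 the highest at 45.6. Of these 10 genes, 8 passed the filter on low values. Their summed signal per kb was 43.0 and 55.3 in the control libraries and 63.1 and 72.8 in the auxin libraries. Most of this sum was COL1A1 alone, with 32.9 and 41.7 in control and 50.9 and 56.9 in auxin libraries. The sum therefore does not describe the markers as a set, and its part in the results was not tested.

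The pairs are short-gapped, and most of their members passed the filter on low values. The gap had a median of 1477.5 bases and a range from 0 to 4996; 357 pairs had at most 1000 bases between the members and 54 had at most 100. Chromosome 1 held 102 pairs, and chromosome 19 held 96, which is 10.5% of the pairs against 7.39% of protein-coding genes. The median span of a member was 21257.5 bases, against 24758.5 for protein-coding genes in general. Of the 1824 members, 1750 passed the filter on low values and 1641 had a mean scaled signal of at least 50; both members passed in 851 pairs, 1 member in 48 and neither in 13. In 292 pairs neither member overlaps any other gene of the table, on either strand, and in the other 620 some of a member's signal may belong to an overlapping gene.

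Few members were called in the main fit, which does not use the replicate number. Below, a gene that is called or passes the test does so in this fit, unless another setting is named. At a limma adjusted p under 0.05, 18 of 1750 tested members (1.03%) differed, 9 higher and 9 lower, which is near the background: 0.732% of all 39464 tested genes and 1.17% of 17767 protein-coding genes were called, with 0.332% of all genes higher and 0.4% lower, and 0.49% of protein-coding genes higher and 0.681% lower. When libraries were scaled by their totals alone, the split was 11 higher and 7 lower. The 2 auxin libraries lay beyond both control libraries in 743 members (42.5%), against 38.2% of all tested genes and 44.3% of protein-coding genes. The median log2 change was -0.0071 over the tested members and 0.0089 over all tested genes. The count of called members became 23 or 16 with control replicate 1 or 2 left out and 34 or 37 with auxin replicate 1 or 2 left out, and on the deposited scale without further scaling it was 3.

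The member that rose furthest, CYP1B1, did so beside a neighbour that did not pass the test. It encodes a cytochrome P450 that oxidises steroid hormones and many foreign compounds, and lies on chromosome 2 (GRCh38, minus strand, chr2:38067509-38076151), 371 bases beyond the end of RMDN2, a gene named for the regulation of microtubule dynamics (plus strand, chr2:37950463-38067137). CYP1B1 had 288 and 119 in the control libraries and 2204 and 2007 in the auxin libraries, with no overlap between the groups. The control mean was 203 ± 119.9 and the auxin mean 2105 ± 139.7 (SD, n = 2), with a log2 change of 3.5 (SE 0.34, limma adjusted p = 0.00179). RMDN2 had 493 and 429.8 in control and 457 and 563 in auxin libraries, which overlap (log2 change 0.14, SE 0.21, limma adjusted p = 0.935). CYP1B1 overlaps no other gene of the table, so its rise is not shared with an overlapping row.

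LTK, a receptor tyrosine kinase, offers the same view without any overlapping gene in either member. It lies 86 bases beyond ITPKA, an inositol trisphosphate kinase. LTK had 582 and 580.2 in the control libraries and 1219.9 and 1310.4 in the auxin libraries, all higher (log2 change 1.12, SE 0.18, limma adjusted p = 0.0204). ITPKA had 571 and 568 in control and 532 and 482 in auxin libraries, slightly lower in both (log2 change -0.17, SE 0.19, limma adjusted p = 0.89). In the control libraries both genes had nearly the same signal, and after auxin that of LTK was the higher in both libraries.

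Other members that rose were ATXN1, a transcriptional repressor whose expansion causes an ataxia, ITGA11, an integrin chain that binds collagen, and LOXL2, a lysyl oxidase that crosslinks collagen. ATXN1 had 16322 and 18573 in control and 38195 and 50233 in auxin libraries, and rose by 1.33 on the log2 scale (SE 0.14, limma adjusted p = 0.0021). Its neighbour GMPR, a purine-salvage enzyme 3562 bases away, changed by 0.27 (limma adjusted p = 0.648). ITGA11 had 1056 and 1058 against 2098 and 3363 (log2 change 1.33, SE 0.22, limma adjusted p = 0.0249). FEM1B, a ubiquitin ligase substrate receptor with 17.2 times the signal per kb of ITGA11 and a gap of 669 bases, changed by 0.23 (limma adjusted p = 0.657). Without control replicate 2 the call of ITGA11 was lost (limma adjusted p = 0.0539). LOXL2 had 6557 and 5606 against 12447 and 17751 (log2 change 1.29, SE 0.17, limma adjusted p = 0.00821), and its neighbour R3HCC1 changed by 0.18 (limma adjusted p = 0.836). In all 3 pairs the auxin libraries of the called member lay above both control libraries.

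Among further called members that were higher, GDF15, a stress-induced cytokine, changed by 1.18 (SE 0.16) and ASB2, a ubiquitin ligase subunit, by 2.58 (SE 0.35). LRRC25, the partner of GDF15, had 51.7 and 43.0 in control and 37.5 and 25.8 in auxin libraries, and FAM181A, the partner of ASB2, was too low to be tested.

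NFAT5 and NQO1 were the only pair with both members called, and they moved apart. NFAT5, the transcription factor of the response to osmotic stress, had 25436 and 30411 in control and 14313 and 18009 in auxin libraries. It fell by 0.79 on the log2 scale (SE 0.14, limma adjusted p = 0.0319). NQO1, a quinone reductase and a known target of the aryl hydrocarbon receptor and NRF2, had 11197 and 7695 against 21397 and 16770.0 and rose by 1.03 (SE 0.18, limma adjusted p = 0.0331). The groups did not overlap for either gene, and the gap is 4750 bases. Without control replicate 2 neither call held (limma adjusted p = 0.105 for NFAT5 and 0.0744 for NQO1), and both were also lost without the filter on low values and with a mean of at least 50 required.

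**Figure D1:**
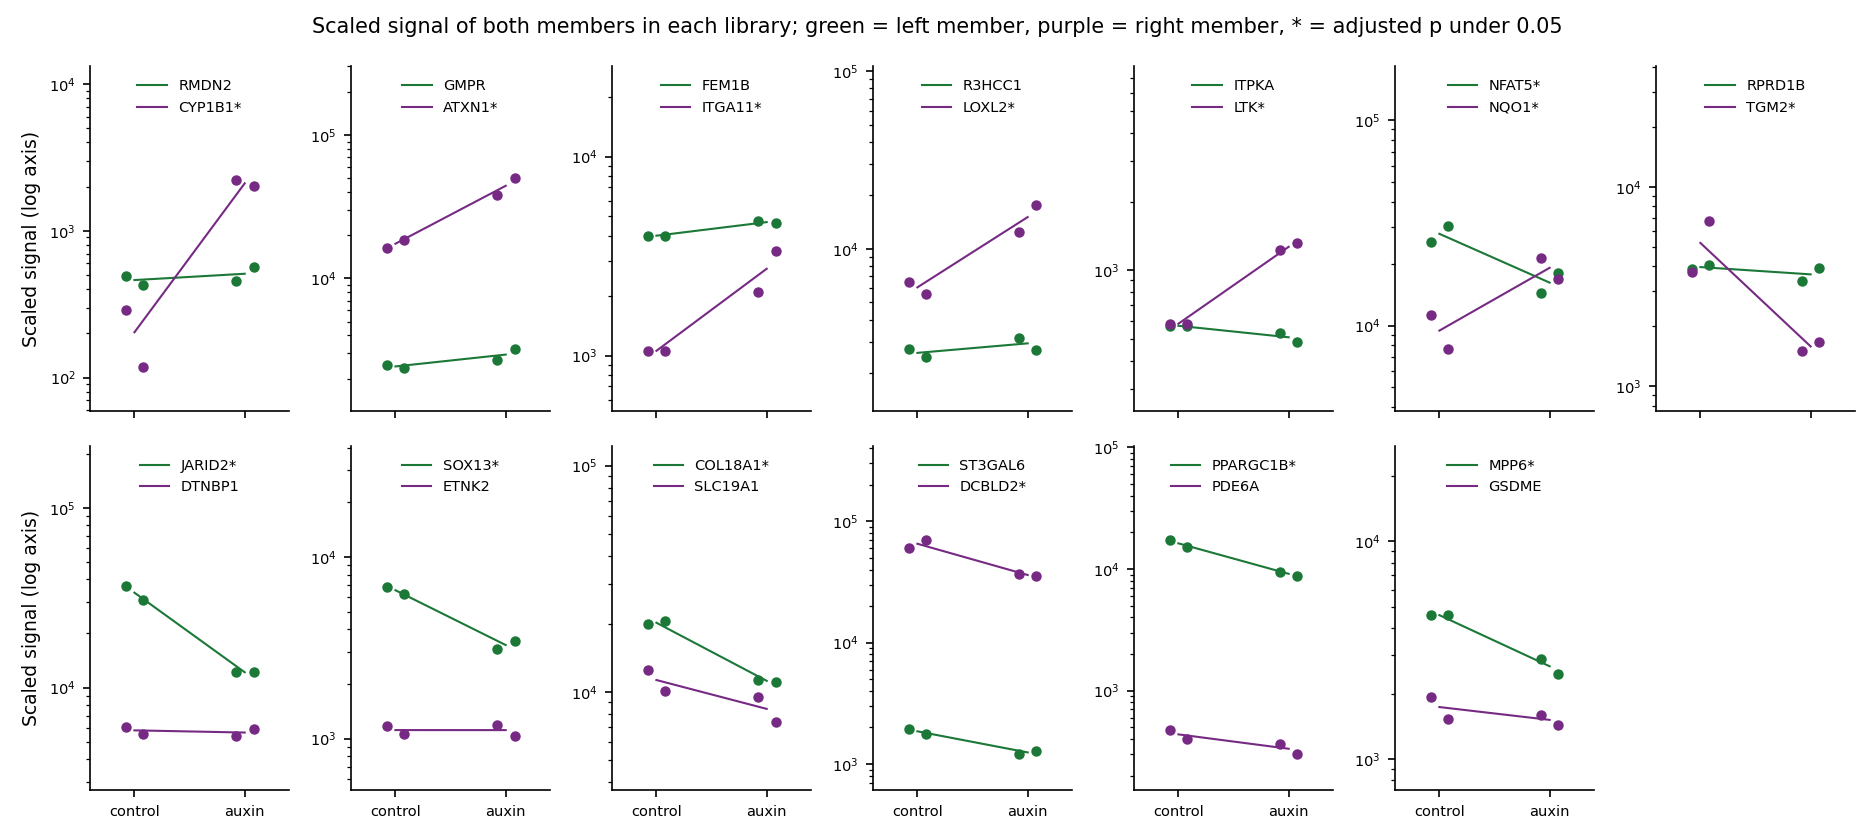
Scaled signal (log axis) of both members in each of 13 pairs chosen for a called member, with 2 control and 2 auxin libraries as points and lines joining group means; green is the left and purple the right member, and an asterisk marks a limma adjusted p under 0.05. As the panels were chosen for a called member, its line moves away from its control libraries, and that of its partner is flatter in most panels. NFAT5 and NQO1 cross the other way from each other.

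Among the members that fell, JARID2, a cofactor of Polycomb repression, had the smallest p. It had 36917 and 30522 in control and 12147 and 12211 in auxin libraries, and fell by 1.46 on the log2 scale (SE 0.12, limma adjusted p = 9.03e-04). DTNBP1, which encodes dysbindin and lies 767 bases away, had 6034 and 5550.4 against 5389 and 5875, which overlap (log2 change -0.041, SE 0.13). TGM2, a transglutaminase, had 3746 and 6751 against 1506 and 1665 and fell by 1.67 (SE 0.24, limma adjusted p = 0.0129). RPRD1B, a protein that binds the tail of RNA polymerase II and lies 2303 bases away, changed by -0.12 (limma adjusted p = 0.895). SOX13, a transcription factor, had 6859 and 6281 against 3113 and 3444 (log2 change -1.0, SE 0.14, limma adjusted p = 0.0108), and its neighbour ETNK2 changed by -0.0018. The 3 called genes were lower in both auxin libraries, and none of the 3 neighbours passed the test.

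In other pairs both members were lower but only 1 passed the test. DCBLD2, a transmembrane receptor-like protein, had 60489 and 70294 against 36868 and 35376 and fell by 0.85 (SE 0.10, limma adjusted p = 0.00428). Across a gap of 95 bases, the sialyltransferase gene ST3GAL6, whose signal per kb was lower by a factor of 19.7, had 1943 and 1772 against 1216 and 1273. Both auxin libraries of ST3GAL6 lay below both control libraries, with a log2 change of -0.58 (SE 0.16, limma adjusted p = 0.184, unadjusted p = 0.00496). COL18A1, a basement-membrane collagen, had 19929 and 20455 against 11283 and 11064 (log2 change -0.85, SE 0.11, limma adjusted p = 0.00656). Its neighbour SLC19A1, the reduced folate carrier, 994 bases away, had 12425 and 10107 against 9454 and 7337 (log2 change -0.43, SE 0.16, limma adjusted p = 0.336). PPARGC1B, a coactivator of mitochondrial genes, fell by 0.83 (SE 0.12, limma adjusted p = 0.0136) beside the photoreceptor phosphodiesterase PDE6A with 471 and 401 against 361 and 303 (log2 change -0.39, limma adjusted p = 0.612). MPP6, a membrane scaffold protein, fell by 0.78 (SE 0.15, limma adjusted p = 0.0428) and the gasdermin GSDME changed by -0.19. The limma adjusted p of MPP6 was 0.0895, 0.105 and 0.158 when control replicate 1, control replicate 2 or auxin replicate 2 was left out.

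The partners of called members can be counted as follows. Of the 18 called members, 17 had a tested partner, in 16 pairs. The partner changed in the same direction in 13 cases and in the opposite direction in 4. NFAT5 and NQO1, partners of each other, are both among the 4. The 13 include ETNK2 and EMILIN2, the partner of LPIN2, with log2 changes of only -0.0018 and -0.0070. With libraries scaled by their totals, ETNK2 changed by 0.034, so the count depends on the scaling. In the direction of the called member, the median log2 change of the partner was 0.14, against a median size of 1.03 for the called members themselves. Called members were picked for their change and most partners were not, so a larger value in the former is set by this choice. The partner had an unadjusted p under 0.05 in 5 cases and was itself called in 2, NFAT5 and NQO1; 10.2% of all tested genes and 14.6% of protein-coding genes had such an unadjusted p. Among the 851 pairs, 518 (60.9%) changed in the same direction, compared with 59.3% when 1 control replicate is set against the other and 57.7% for auxin replicates.

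Both members had an unadjusted p under 0.05 in 25 pairs, of which 7 were higher together, 12 lower together and 6 moved apart. That is 2.94% of the convergent pairs, against 3.04% of all adjacent pairs, 3.06% of tandem and 3.15% of divergent ones. The direction was shared in 76.0% of these convergent pairs, against 83.3% of all such adjacent pairs, and neither share stands above the others. The members of those that moved together furthest were not called. CLCN1, the chloride channel of muscle, had 225 and 226 in control and 359 and 364 in auxin libraries (log2 change 0.68, SE 0.21, limma adjusted p = 0.238). FAM131B, 1317 bases away, had 49.2 and 44.0 against 86.5 and 94.3 (log2 change 0.94, SE 0.31, limma adjusted p = 0.267). Neither gene overlaps another gene, and both were higher in both auxin libraries. RASAL2, a RAS GTPase-activating protein, and CLEC20A changed by -0.95 and -0.89 (SE 0.22 and 0.28) across 396 bases. FRMD5 and WDR76 changed by -1.02 and -0.63 (SE 0.24 and 0.23) across 2351 bases.

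The ratio of the 2 members was tested directly within each pair. The dominant member was the one with more signal per kb over all 4 libraries, and a positive change means that the weaker member gained on it with auxin. At a limma adjusted p under 0.05, 9 of 851 convergent pairs (1.06%) had a changed ratio, in 5 of which the weaker member gained and in 4 of which it lost. The auxin libraries enter the choice of the dominant member, so these directions depend on it: the split was 7 and 2 with the dominant member set from the control libraries alone and 4 and 5 from the auxin libraries alone, for the same 9 pairs. Of all 3944 adjacent protein-coding pairs with such gaps, 0.786% were called, 0.38% with the weaker member gaining and 0.406% with it losing. The share among 1567 tandem pairs (both genes on 1 strand) was 0.511% and among 1144 divergent pairs 0.962%. At an unadjusted p under 0.05 the convergent pairs reached 12.0%, against 12.3% of all adjacent pairs, so the share of changed ratios was near the background. The count became 6 or 2 with control replicate 1 or 2 left out, and 17 or 7 with auxin replicate 1 or 2 left out.

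Of the 9 changed ratios, 6 were in pairs with a called member. The weaker RMDN2 lost to CYP1B1 by 3.36 on the log2 scale (SE 0.33, limma adjusted p = 0.0013), and DTNBP1 gained on JARID2 by 1.42 (SE 0.15, limma adjusted p = 0.00177). RPRD1B gained on TGM2 by 1.54 (SE 0.23) and NFAT5 lost to NQO1 by 1.82 (SE 0.26), each with a limma adjusted p of 0.017. LTK gained on ITPKA by 1.29 (SE 0.22, limma adjusted p = 0.0257) and ATXN1 gained on GMPR by 1.06 (SE 0.17, limma adjusted p = 0.0247). Neither LTK nor ATXN1 was the dominant member in the control libraries, where LTK had 56.8 per kb against 58.8 for ITPKA and ATXN1 had 37.7 against 42.7 for GMPR. TGM2 was dominant in the control libraries, with 138.5 per kb against 67.0 for RPRD1B, but not in the auxin libraries, with 41.9 against 61.6. The calls of ITPKA-LTK and GMPR-ATXN1 were lost when either control library or auxin replicate 2 was left out. Those of NFAT5-NQO1, RPRD1B-TGM2, KLF11-CYS1 and SLC44A3-CNN3 were lost without control replicate 2, at ratio changes from -1.42 to 1.44.

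In 3 pairs the ratio changed although neither member was called by itself. KLF11, a Krüppel-like transcription factor, had 1729 and 1465 in control and 1066 and 783 in auxin libraries. CYS1, the ciliary protein cystin, had 599 and 507 against 893 and 824 across 1943 bases, so the groups of both genes did not overlap and moved apart. The weaker CYS1 gained by 1.44 (SE 0.21, limma adjusted p = 0.017). SLC44A3, a choline transporter-like protein, had 2527 and 2574 against 3253 and 3672, while CNN3, an actin-binding calponin, had 6881 and 8080.5 against 4001 and 5249.7. The weaker SLC44A3 gained by 1.14 (SE 0.17, limma adjusted p = 0.017). SYTL3 gained on EZR, which links actin to the membrane, by 0.66 (SE 0.11, limma adjusted p = 0.0312); SYTL3 had 18548 and 22254 against 25359 and 30678, and EZR had 88106 and 101036 against 78334 and 86075. This last call was also lost when either control library or auxin replicate 2 was left out (limma adjusted p = 0.118, 0.166 and 0.080).

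**Figure D2:**
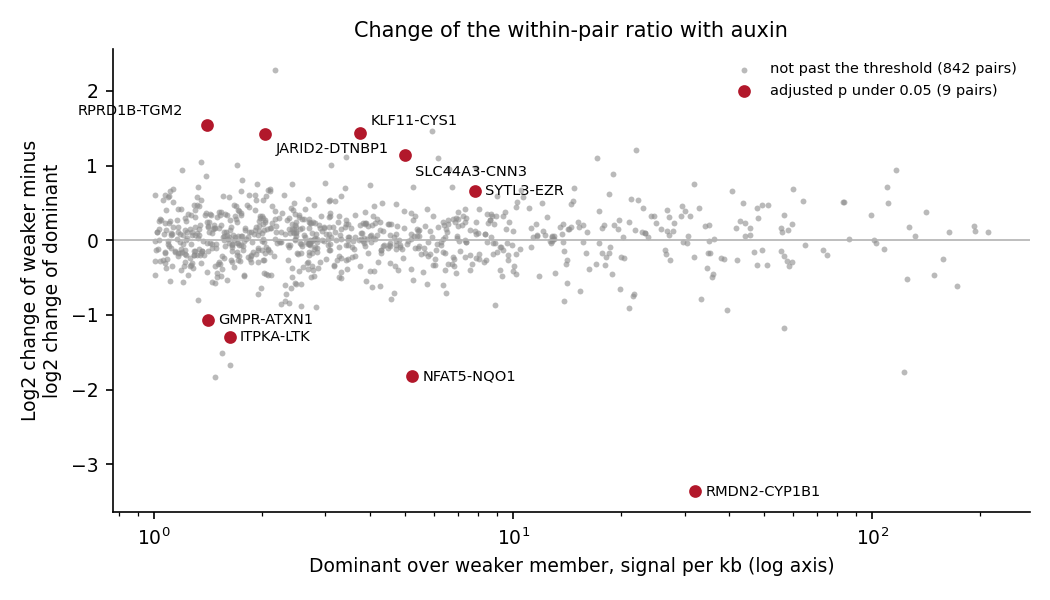
Change with auxin of the log2 ratio of weaker over dominant member (y axis) against the excess of the dominant member in signal per kb (x axis, log axis), 1 point for each of the 851 pairs, with the dominant member set from all 4 libraries. The 9 called pairs lie on both sides of 0, 5 above and 4 below.

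Across the pairs, the median gain of the weaker on the dominant member was of the size of replicate differences. The median change of the ratio was 0.042 on the log2 scale, where the 2 control replicates differed by 0.14 and the 2 auxin replicates by 0.039. The sign of a replicate difference depends on the order of the libraries. For 1 auxin library minus 1 control library the median change ran from -0.065 to 0.14. The median log2 ratio of weaker over dominant member was -1.51 and -1.71 in the control libraries and -1.49 and -1.66 in the auxin libraries, so the groups overlap. The median turned to -0.041 without control replicate 2. Where the dominant member had at least 10 times the signal per kb, in 180 pairs, the median change was 0.072, against 0.21 between the control and 0.014 between the auxin replicates. With the dominant member set from the control or the auxin libraries alone, the median over all pairs was 0.053 and 0.020. The median change was 0.036 in tandem and 0.024 in divergent pairs.

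In the 3 pairs with the largest excess of the dominant member, neither gene passed the test. ENGASE, an endoglycosidase, had 210.2 times the signal per kb of RBFOX3, a neuronal splicing regulator, which had 432 and 389 in control and 447 and 414 in auxin libraries. RPL30, a ribosomal protein gene, had 193 times that of MATN2, an extracellular matrix protein, which had 1328 and 1070.3 against 1325 and 1159.9. THBS1, a matricellular glycoprotein, had 192 times that of FSIP1, which had 298 and 357 against 292 and 312. The control and auxin libraries of all 3 weaker genes overlapped.

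In 3 pairs with a gap of 0 bases, where the spans abut, none of the 6 genes passed the test. The 3 were taken in order of gap and then of name, so other pairs may abut as well. ANKRD13B had 2542 and 2425 against 1664 and 1383, lower in both auxin libraries (log2 change -0.71, SE 0.16, limma adjusted p = 0.1). Its neighbour CORO6, a coronin, had 949 and 816 against 879.9 and 703, which overlap (log2 change -0.16). FAM160A1 and GATB, a subunit of a mitochondrial amidotransferase, changed by 0.40 and 0.11. REC114, a meiotic recombination factor, and NPTN, a cell adhesion protein, changed by 0.30 and 0.27.

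Pairs with longer gaps had lower signal per kb in both members, and more unequal members. The weaker member had a median of 66.4 per kb at gaps up to 1000 bases (343 pairs), 41.7 above that and up to 2000 bases (163 pairs) and 33.5 at longer gaps up to 5000 bases (345 pairs). The dominant member had medians of 218, 178 and 158 in the same classes. The share of pairs with a dominant member at least 10 times the weaker was 15.5%, 22.1% and 26.4%. Of the 9 called ratios, 4, 2 and 3 fell in these classes. These levels are sums over whole spans and were not tested against each other.

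Changes within pairs were weakly related. Across the 851 pairs, Spearman's rho between the log2 changes of the left and the right member was 0.285 for auxin minus control, computed from group means of the same 4 libraries. The same quantity was 0.163 when control replicate 1 was set against 2 and 0.191 for the auxin pair of replicates. A group mean carries less noise than 1 library, so the nearer comparison is 1 auxin library minus 1 control library, with values from 0.197 to 0.280. Members with the same replicate number deviated together, and a replicate difference always spans 2 numbers. Libraries of different numbers gave 0.197 and 0.217, and libraries of the same number gave 0.225 and 0.280. All of these lie above the replicate values, the lowest by little, and those of the same number are not like for like. Neighbours share library, depth and regional base composition, and the level per kb of both members was itself related (rho 0.370), so these values describe the pairs and carry no test.

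**Figure D3:**
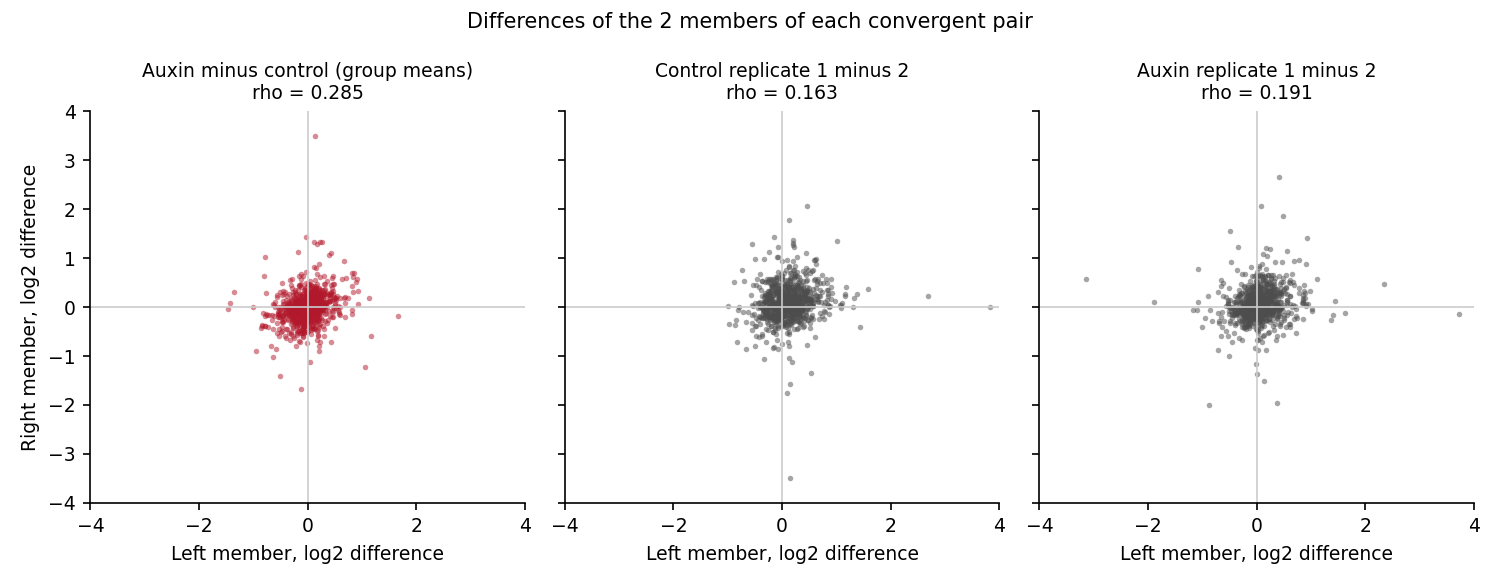
Log2 difference of the left member (x axis) against that of the right member (y axis) in each of 851 convergent pairs, for auxin minus control (group means), control replicate 1 minus 2 and auxin replicate 1 minus 2. The rho values are 0.285, 0.163 and 0.191.

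The relation was of similar size in pairs of other orientation. In tandem pairs rho was 0.214 for auxin minus control, 0.172 and 0.208 for the replicate differences and 0.171 to 0.225 for single libraries. In divergent pairs it was 0.242, 0.237 and 0.189, with 0.219 to 0.247 for single libraries. The rule for convergent pairs leaves out genes with a divergent partner, but these 2 classes keep them. Tandem pairs without such genes had 0.221, 0.164 and 0.188 (1303 pairs), with 0.177 to 0.223 for single libraries. Among pairs in which neither member overlaps another gene, the convergent value was 0.226 (259 pairs), the tandem value 0.301 (393 pairs) and the divergent value 0.243 (273 pairs). The convergent pairs thus had the highest of the 3 values over all pairs and the lowest over pairs free of overlap.

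Along the gap, rho for auxin minus control was 0.333 up to 1000 bases, 0.170 above that and up to 2000 bases and 0.288 at longer gaps up to 5000 bases. Convergent pairs with longer gaps, which are not members, had 0.114 between 5 and 20 kb (652 pairs) and 0.0906 between 20 and 50 kb (355 pairs). Convergent neighbours whose spans overlap had 0.546 (586 pairs), beside 0.450 and 0.486 for the replicate differences; the part of the shared bases in this was not tested. At gaps up to 1000 bases the replicate values were 0.159 and 0.247 and the single-library values 0.231 to 0.322, so the range of the latter reaches below the higher replicate value. In the middle class the value for the control replicates, 0.235, was above that for auxin.

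**Figure D4:**
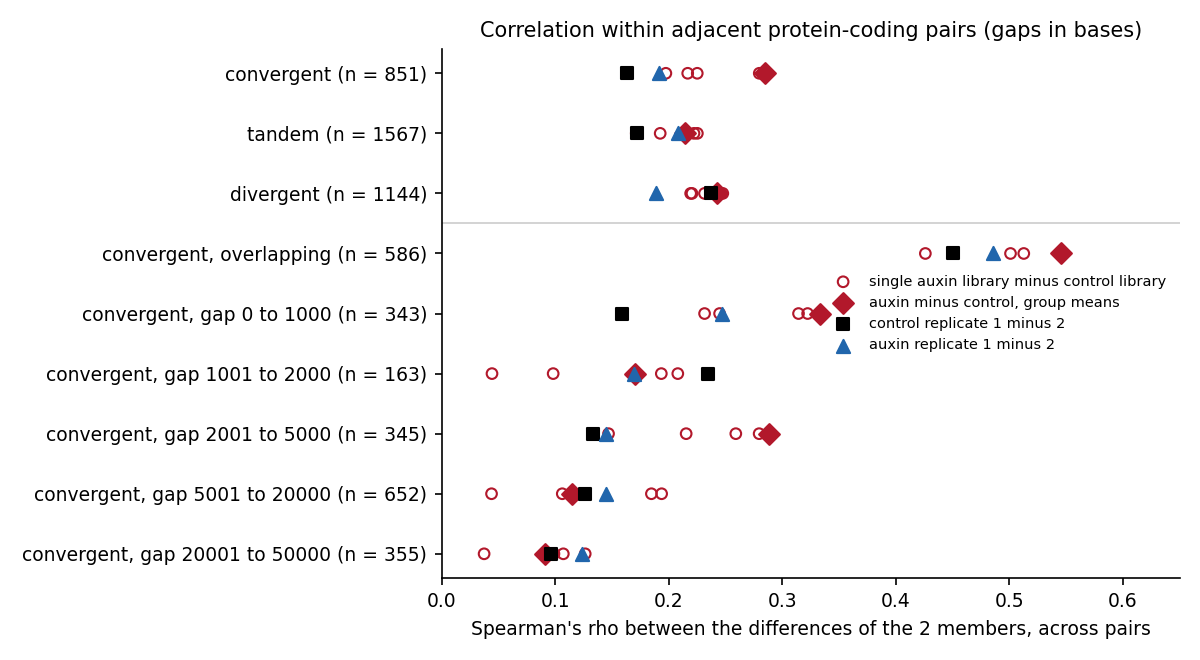
Spearman's rho between the differences of both members (x axis) in 9 classes of adjacent protein-coding pairs (y axis, n pairs each). Diamonds are auxin minus control from group means, open circles single auxin minus single control libraries, squares control replicates and triangles auxin replicates; overlapping pairs stand furthest right and pairs with gaps over 5000 bases furthest left.

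The relation differed in value with how unequal the members were. In convergent pairs whose members were within 2-fold of each other (259 pairs), rho was 0.197 for auxin minus control, below both replicate values of 0.307 and 0.280. At an excess of 2 to 10 times (412 pairs) it was 0.30, beside 0.114 and 0.221. At 10 times or more (180 pairs) it was 0.358, beside 0.125 and 0.0542 for the replicates, and the single-library values ran from 0.204 to 0.327, all above both replicate values. In tandem pairs the value at 10 times or more was 0.204 (365 pairs), beside 0.0479 and 0.184, with single-library values from 0.0684 to 0.203. Where the weaker member spanned under 10 kb (214 pairs) the convergent value was 0.339, and at 10 kb or more (637 pairs) it was 0.263. These classes were drawn after the first correlations were seen.

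**Figure D5:**
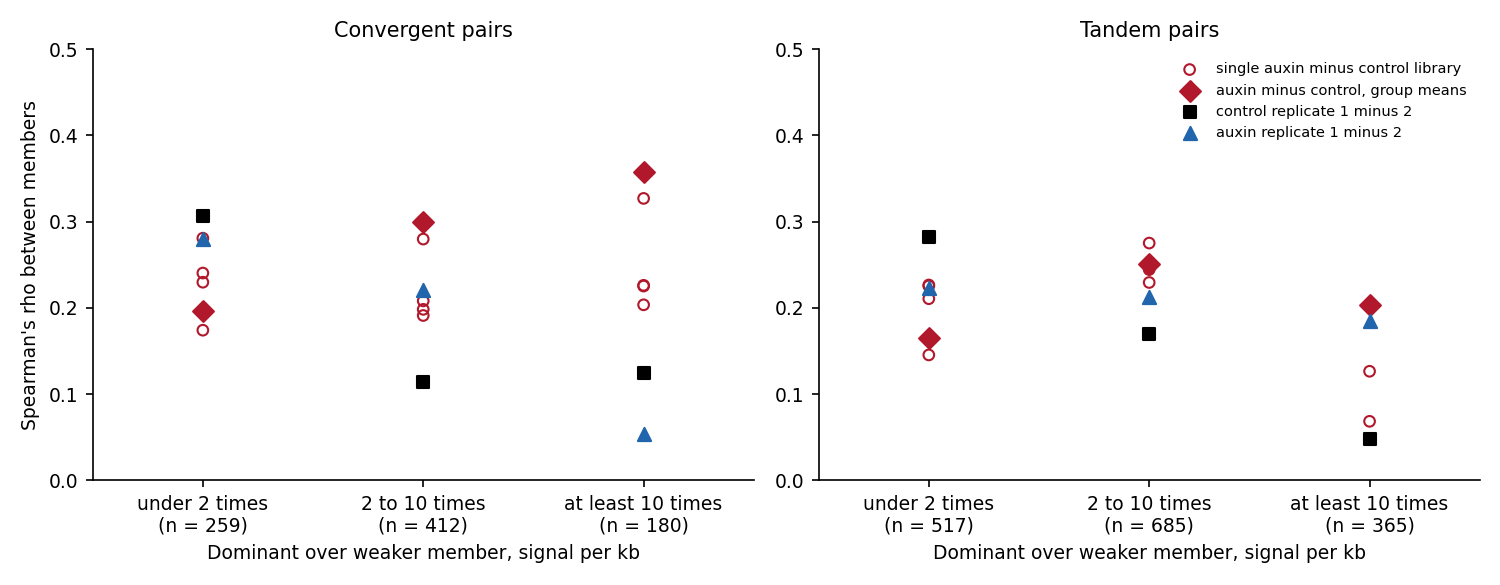
Spearman's rho (y axis) in convergent and tandem pairs by the excess of the dominant over the weaker member in signal per kb (x axis, n pairs each), for auxin minus control (group means and single libraries) and for both replicate differences. In convergent pairs the value for auxin is 0.197, 0.30 and 0.358 from the least to the most unequal class.

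Small genes that lie inside the gap, such as lncRNAs, pseudogenes and small RNAs, were read as well. Signal of their own and signal from a member cannot be told apart in these rows. The table holds 26 rows of other types that lie wholly in a gap, 19 of them free of any overlap and 15 of those tested, each in a different pair; they were looked at after the other results. None was called, against 0.732% of all tested genes. An unadjusted p under 0.05 by limma was reached by 2 of the 15, against 10.2% of all tested genes. Their median span was 385 bases and their median signal 208 per kb, against 193 per kb for the dominant and 50.1 for the weaker member of the same pairs; how signal at the edges of so short a row was counted is not given in the sources used here. Over these 15 rows, rho between their change and that of the dominant member was 0.85, with 0.475 to 0.796 for single libraries, and 0.0929 and 0.0179 for the replicate differences. With the weaker member it was 0.236, beside -0.282 and 0.575. The direction was that of the dominant member in 11 of 15, where the 2 members of a convergent pair shared a direction in 60.9% of pairs. Some of the 15 rows were near the floor of the filter, so their changes are uncertain. The Y_RNA copy between ART1 and CHRNA10 had 18.7 and 8.18 in control and 10.7 and 18.0 in auxin libraries (SE 0.63). RNA5SP379 had 8.48 and 12.3 against 5.36 and 11.2 (SE 0.70).

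The clearest of these rows, picked after its values were seen, lies between JARID2 and DTNBP1. It is a 5S_rRNA copy of 106 bases, 152 bases beyond the end of JARID2 and 509 bases before that of DTNBP1. It had 88.2 and 71.6 in the control libraries and 32.1 and 37.1 in the auxin libraries, a log2 change of -1.18 (SE 0.34, limma adjusted p = 0.192), beside -1.46 for JARID2 and -0.041 for DTNBP1. The row was thus lower in both auxin libraries, like JARID2 and unlike DTNBP1. Sequences of this family have near-identical copies, so the value is uncertain.

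Genes of the machinery that ends transcription were read from a list of 36 cleavage, polyadenylation and termination factors. All 36 were tested and none was called with limma, against 0.732% of all genes. Their median log2 change was -0.11, against 0.0089 over all genes; 9 were above 0 and 27 below, or 13 and 23 when libraries were scaled by their totals. At an unadjusted p under 0.05 there were 3 (8.33%, against 10.2% of all genes), CPSF6 and TTF2 lower and ZC3H4 higher (log2 change -0.31, -0.45 and 0.31). TTF2, an ATPase that releases RNA polymerase II, had the smallest p. TTF2 is also a member, beside TRIM45: it had 5436 and 5760.4 in control and 4020.0 and 4150.2 in auxin libraries (log2 change -0.45, SE 0.13, limma adjusted p = 0.198). Other factors that are members were CPSF4 (-0.24), CSTF2 (-0.21), SCAF4 (-0.23) and RPRD1B (-0.12), none of which passed the test.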

How the data were processed

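The authors deposited 1 table with a value per gene and library, read here as a scaled signal, and with gene coordinates, span and type. How the signal was made is not given in the sources used here; the submitters' processing notes name Trimmomatic 0.39, Bowtie2 2.4.5, deepTools 3.5.1 and the builds hg38 and dm6, with no role. A directional kit was used, per the labels' protocols. The misspelt control column was read as control replicate 2. Starts count from 0 in the table and are printed 1 higher.

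A gene was tested if at least 2 libraries reached 10 (after division by total over the median total) and the sum reached 15. Signals were scaled by TMM (30% and 5% trimmed), and log2(value + 1) was fitted with limma 3.58.1 in R 4.3.3 (lmFit, eBayes with trend), auxin against control, with Benjamini-Hochberg adjustment over 39464 genes, or over 3944 adjacent pairs for ratios. Log2 changes are on this scale, which understates those of low genes. The fits were tested on simulated data. Tables and figures used Python 3.11.15, pandas 2.3.3, scipy 1.17.1 and matplotlib 3.10.9.

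The members, the lists and the classes were chosen with earlier results of these data known. Named pairs were, with both means at least 50: up to 8 with the largest rise and 8 with the largest fall of a called member, up to 8 called ratios, 3 moving together and 3 apart most, 3 with the smallest gap and 3 with the largest excess. One pair that meets this rule is not reported here. SYTL3-EZR, GDF15, ASB2 and the gap row were added after their values were seen. Alternatives were other scalings, filters, pseudocounts of 0.1 and 10, the replicate number as a block, a threshold of 0.01, each library left out, narrower or wider pair rules and, added after seeing the data, the dominant member set from 1 group. No genome was used.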

Additional observations from a re-analysis of the deposited data

How the results depend on the processing

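The count of 18 called members stayed within 1.5 times under median-of-ratios or library-total scaling, without the filter, with a mean of at least 50, with either pseudocount and without the exclusion of divergent partners, and the count of 9 called ratios did so under these and on the deposited scale. On the deposited scale 3 members were called, and 15 of the 18 calls were lost. At an adjusted p under 0.01 there were 7 of 1750 members and 2 of 851 ratios. In pairs whose members overlap no other gene, 1 of 541 members (LTK) and 1 of 259 ratios were called. With gaps of at most 1000 bases there were 8 of 696 members and 4 of 343 ratios. Shares over all genes under the same limits are not given here, nor are they for the counts with a library left out. Leaving out each library in turn gave 16 to 37 members, 2 to 17 ratios, a within-pair Spearman correlation from 0.222 to 0.267 and a median ratio change from -0.041 to 0.11. LPIN2 was lost under 9 of the 12 refits and MPP6 under 6. The within-pair correlation was 0.226 without overlapping genes, 0.333 at gaps of at most 1000 bases, 0.197 and 0.358 in the least and most unequal pairs and 0.339 with a short weaker member. For named genes and ratios no called value changed sign.

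Members with the same replicate number deviated together (Pearson's r 0.462, Spearman's rho 0.523 over 1750 members), but no label ties a number to a day, batch or culture. With the replicate number as a block, 284 members, 109 higher and 175 lower and all 18 among them, and 140 ratios were called. Some genes described above as not passing did pass in that fit. Among them were ST3GAL6, SLC19A1, KLF11, CYS1, SLC44A3, CNN3, RASAL2, FRMD5, ANKRD13B, FAM160A1, THBS1 and TTF2. Others, such as RMDN2, ITPKA, GMPR, FEM1B, R3HCC1, DTNBP1, RPRD1B, ETNK2, PDE6A and GSDME, did not pass in it either. The shares of all tested genes and of all adjacent pairs called in that fit are not given here. These counts therefore do not set the convergent pairs apart from other genes. The unknown depth in reads, 2 libraries a group and the lack of strand limit what the pairs can show.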
